A study of Mus musculus with 12 samples.

Results

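The genes described here are Cd200, Cd200r1, Cd47 and Sirpa, the ligands and receptors of a pair of inhibitory signalling axes of macrophages. They were taken from the arrays by probe name: every probe carrying one of these symbols, or a synonym of it, was kept. This gave 5 probes for 4 genes, of 22997 genes in the fit. Cd200 was chosen by its measured level, lower in untreated knockout cells than in wildtype cells, so every value of Cd200 that uses the untreated samples is a description without a test. The other members were chosen for their place in the same axes, and the untreated genotype difference is given without a test for all 4.

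CD200 is a membrane glycoprotein whose short cytoplasmic tail carries no known signal. It binds CD200R1, a receptor of myeloid cells that recruits the adaptors DOK2 and DOK1 and, through them, the Ras GTPase-activating protein encoded by Rasa1, which restrains Ras and MAP kinase signalling. CD47 is a widely expressed membrane protein that binds SIRPA on macrophages. The tail of SIRPA is then phosphorylated and recruits the phosphatases SHP-1 and SHP-2, which lowers myosin-dependent engulfment, so CD47 is known as a "don't eat me" signal.

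Macrophages from marrow of 2 wildtype mice and of 2 mice whose cells are labelled Commd1 knockout were measured on 12 single-colour arrays of 1 sample each. All cultures had received 20 ng/ml GM-CSF for 10 days. By replicate number, each mouse gave cells left untreated, and cells exposed for 3 h or for 24 h to lipopolysaccharide at 10 ng/mL (LPS, a bacterial wall component sensed by TLR4). This made 6 groups of 2: untreated, LPS 3 h and LPS 24 h in wildtype, and the same in knockout. The labels give no strain, age or sex, nor how the Commd1 allele was made, and GM-CSF cultures of marrow are known to hold dendritic-like cells beside macrophages. Replicates of a group were taken as different mice, and the 3 samples of a genotype with the same replicate number as coming from 1 mouse. Those 3 samples may thus not be independent.

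Commd1 was at 2.70 to 2.89 in the 6 wildtype samples and at -0.50 to 0.07 in the 6 knockout samples, on the scale used throughout, log2 processed signal minus the 75th percentile of that array. Of the probes on an array, 59.6% to 72.9% were well above background. All 8 macrophage markers (such as Adgre1, Csf1r and Cd68) were above background on all 12 arrays. Each time of LPS lay on a slide of its own, so slide and time cannot be told apart. Within each slide the wildtype arrays took the first positions and the knockout arrays the last, so the same holds for genotype and position: they cannot be told apart. The slope of signal on spiked-in control RNA was 0.735 to 0.743 on untreated and 3 h wildtype arrays, and 0.794 to 0.799 on the knockout arrays of the same slides. On the 24 h slide the wildtype slopes were 0.820 and 0.824 and the knockout slopes 0.869 and 0.842.

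The probes are shown first because every level below is read from them, and because Cd47 is the member with 2 probes at different places of its transcript. Coordinates are those of the files (mm9); exon and UTR annotation of that build was not used here. The Cd200 probe lies at chr16:45382387-45382446 on the minus strand and starts at base 2148 of its transcript. The Cd200r1 probe lies at chr16:44794670-44794729 on the plus strand, from base 1470. The first Cd47 probe lies at chr16:49896476-49896535 on the plus strand, from base 888. The second Cd47 probe starts at base 1083, and its ends lie 4116 bases apart in the genome (chr16:49906910-49911025), so its 60 bases span at least 1 intron. The Sirpa probe lies at chr2:129457873-129457932 on the plus strand, from base 3900. The first Cd47 probe is printed whole and the first 30 bases of the others are given, in probe order.
Cd200: gtctttatagagtgacctaggaattcaagt
Cd200r1: gcacatggttatggtgaaatatcaagttgt
Cd47, first probe: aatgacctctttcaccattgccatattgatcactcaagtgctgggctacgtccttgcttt
Cd47, second probe: tatccaacctcctaggaataggtgaaggga
Sirpa: gaaggaaacaggccctgttttgtacatagt
All 5 probes were well above background on all 12 arrays, and no spot was saturated, so no value of a member below is a bound.

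Across the 6 groups the members followed different courses. Cd47 rose at 3 h of LPS and again by 24 h in both genotypes. Cd200r1 fell at 3 h and was back at or above its untreated level by 24 h. Cd200 was highest at 3 h and fell between 3 h and 24 h, with the lowest levels of all in untreated knockout cells. Sirpa varied the least of the 4, lowest at 3 h in wildtype and highest at 24 h in both genotypes.

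**Figure D1:**
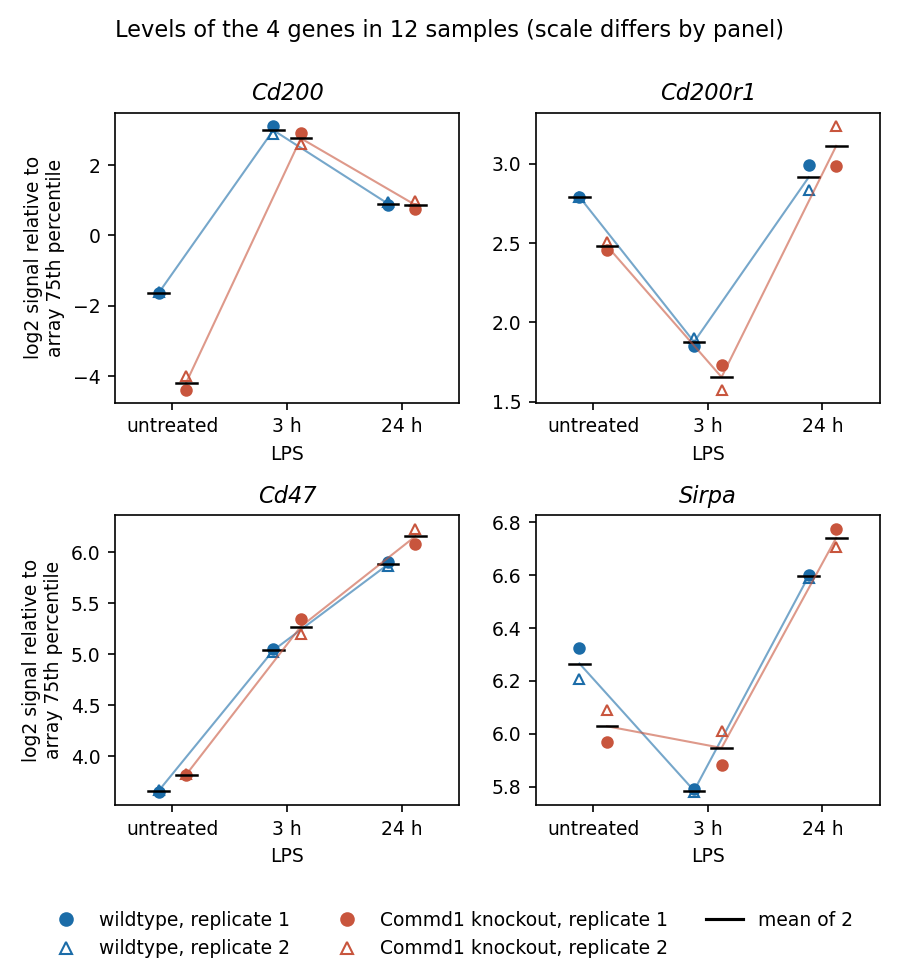
Level of each gene (log2 processed signal relative to the array's 75th percentile, a separate vertical scale per panel) in untreated cells and after 3 h and 24 h of LPS; points are single samples, black bars the means of 2, and lines join group means. Untreated knockout samples stand lowest for Cd200 (-4.37 and -3.97 against -1.64 and -1.62 in wildtype), while after LPS the genotypes overlap for Cd200.

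Cd200, the ligand of the first axis, stood at -1.64 and -1.62 in the untreated wildtype samples and at -4.37 and -3.97 in the untreated knockout samples. Before the log, the processed signals of wildtype were 808 and 890, those of knockout 116 and 146. Both knockout samples lay below both wildtype samples, by a mean log2 difference of -2.54 ± 0.16 (n = 2 mice per genotype, SE from the spread over all 6 groups), or 5.83-fold. This is the difference for which the gene was chosen, and it has no test. Its SE, and that of each Cd200 value that uses untreated samples, makes no allowance for that choice. In bulk RNA, fewer Cd200-expressing cells and less Cd200 RNA per cell cannot be told apart.

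Several measures moved with genotype in the same untreated samples. The spike-in slopes above differed between the genotypes on this slide. The summed level of 8 dendritic cell markers (linear scale, 1 being the array's 75th percentile; 4 of 8 above background on all arrays, Xcr1 on none) ranged from 12 to 13.8 among wildtype and from 18.2 to 25.8 among knockout samples. The sum of 7 B cell markers (3 of 7 above background on all arrays, Ebf1 on none) lay between 0.856 and 0.93 for wildtype and between 1.72 and 1.82 for knockout. Each of these sums is mostly 1 gene. Clec10a carried the dendritic cell sum, at 3.11 and 2.82 in wildtype and 4.58 and 3.99 in knockout, while Itgax, the next most abundant of that list, went the other way, from 2.33 and 2.27 in wildtype to 0.78 and 1.14 in knockout. Cd79b carried the B cell sum, at -0.52 and -0.36 in wildtype and 0.69 and 0.64 in knockout; Cd79a and Vpreb1, the others of that list above background on all arrays, were also higher in knockout, at -6.16 to -5.91 against -6.40 to -6.39 and at -3.13 to -2.85 against -3.36 to -3.30. The 8 macrophage markers summed to 310 to 326 in wildtype and 363 to 373 in knockout. Lower in knockout was the sum of 7 neutrophil markers, at 20.9 to 21.4 against 22.4 to 24.3 in wildtype. The 6 of these above background on all arrays were each lower in both knockout samples than in both wildtype samples. S100a8 was at -1.322 and -1.866 in wildtype and -3.004 and -3.396 in knockout. Kit, a mast cell marker, was at -3.461 and -3.047 in wildtype and -4.876 and -4.374 in knockout. The mast cell and basophil sums overlapped between the genotypes. The part of each in the Cd200 difference was not tested.

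After 3 h of LPS, Cd200 was at 3.10 and 2.87 in wildtype and at 2.91 and 2.61 in knockout. These ranges overlap, and both groups lay far above every untreated sample. The difference from untreated cells was 4.62 ± 0.16 in wildtype (24.5-fold) and 6.93 ± 0.16 in knockout (122-fold), given without a test because the untreated samples chose the gene. The knockout difference was larger by 2.31 ± 0.23, a value that by construction contains the untreated difference. Knockout minus wildtype at 3 h, which the choice of the gene did not use, was -0.23 ± 0.16 (95% interval -0.60 to 0.14; adjusted p = 0.413). Single markers of other cells also moved with LPS. The 7 measured T and NK cell markers (2 of 7 above background on all arrays, Cd3g on none) summed to 0.795 to 0.839 in untreated samples and to 5.35 to 8.37 at 3 h. That rise was Lck, at -2.78 to -2.69 in untreated and 2.23 to 2.96 in 3 h samples, whereas Cd3e, the other marker above background on all arrays, was at -0.78 to -0.67 and then -0.94 to -0.51. The dendritic cell sum lay between 2.09 and 3.07 at 24 h, below every untreated sample, with both Clec10a and Itgax lower there. Zbtb46, of the same list and above background on all arrays, went the other way. It was at -5.12 to -4.76 in untreated samples, 0.90 to 1.75 at 3 h and -2.32 to -1.45 at 24 h. Ccr7 was also higher at 24 h, at -5.24 to -4.52 against -6.64 to -5.89 in untreated samples. Their part in the LPS differences of the members was not tested.

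After 24 h Cd200 was at 0.86 and 0.95 in wildtype and at 0.76 and 0.97 in knockout. The knockout samples enclose the wildtype samples, and the genotype difference was -0.04 ± 0.16 (95% interval -0.41 to 0.33; adjusted p = 0.92). Against untreated cells Cd200 was higher at 24 h by 2.53 ± 0.16 in wildtype (5.78-fold) and by 5.04 ± 0.16 in knockout (32.8-fold), both without a test. Cd200 fell from 3 h to 24 h in both genotypes. The change was -2.09 ± 0.16 in wildtype (4.24-fold lower; adjusted p = 1.77e-05) and -1.89 ± 0.16 in knockout (3.71-fold lower; adjusted p = 2.12e-05), and the genotypes' changes differed by 0.19 ± 0.23 (adjusted p = 0.728). In order of level the groups ran from untreated knockout through untreated wildtype and the pair at 24 h to the pair at 3 h, and within each LPS pair the genotypes did not differ beyond their spread.

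Cd200r1, the inhibitory receptor for CD200, was at 2.79 in both untreated wildtype samples and at 2.46 and 2.51 in the untreated knockout samples. After 3 h it was at 1.85 and 1.90 in wildtype cells, and at 1.73 and 1.58 in knockout cells. All 3 h samples lay below all untreated samples. Cd200r1 fell by 0.91 ± 0.11 on the log2 scale in wildtype (1.89-fold; adjusted p = 0.000191) and by 0.83 ± 0.11 in knockout (1.78-fold; adjusted p = 0.00026). The receptor thus moved opposite to Cd200 at this time.

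By 24 h Cd200r1 was at 3.00 and 2.84 in wildtype and at 2.99 and 3.24 in knockout. It rose from 3 h to 24 h by 1.04 ± 0.11 in wildtype (adjusted p = 8.77e-05) and by 1.46 ± 0.11 in knockout (adjusted p = 9.77e-06). Against untreated cells the 24 h level in knockout was higher by 0.63 ± 0.11 (1.55-fold; adjusted p = 0.00125), and in wildtype by 0.12 ± 0.11 (adjusted p = 0.377). That knockout passed and wildtype did not is no test of their difference, which was 0.51 ± 0.15 (95% interval 0.15 to 0.86; adjusted p = 0.191 over all genes). The 3 h responses of the genotypes differed by 0.09 ± 0.15 (adjusted p = 0.885), and the changes from 3 h to 24 h by 0.42 ± 0.15 (adjusted p = 0.26).

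Knockout minus wildtype for Cd200r1 was -0.31 ± 0.11 in untreated cells (no test). With LPS it was -0.22 ± 0.11 at 3 h (adjusted p = 0.249) and turned to 0.20 ± 0.11 at 24 h (adjusted p = 0.328). The knockout samples were below the wildtype samples without overlap at the first 2 times, and the ranges overlapped at 24 h. In order of level, knockout and wildtype at 3 h came first, then untreated knockout, untreated wildtype and the pair at 24 h.

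Cd47, the ligand of the second axis, gave the steadiest course. Its first probe, which has the higher mean and stands for the gene, was at 3.65 and 3.67 in untreated wildtype and at 3.82 and 3.83 in untreated knockout. After 3 h it was at 5.05 and 5.03 in wildtype and at 5.34 and 5.20 in knockout. After 24 h it reached 5.90 and 5.86 in wildtype cells, and 6.08 and 6.23 in knockout cells. The 6 groups followed each other without overlap, wildtype before knockout at each time, with untreated cells lowest and 24 h highest.

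Cd47 rose at 3 h by 1.38 ± 0.09 in wildtype (2.59-fold; adjusted p = 4.67e-06) and by 1.45 ± 0.09 in knockout (2.73-fold; adjusted p = 2.52e-06). At 24 h it was above untreated cells by 2.22 ± 0.09 in wildtype (4.65-fold; adjusted p = 4.42e-07) and by 2.33 ± 0.09 in knockout (5.04-fold; adjusted p = 2.55e-07). The further rise from 3 h to 24 h was 0.84 ± 0.09 in wildtype (adjusted p = 8.11e-05) and 0.88 ± 0.09 in knockout (adjusted p = 4.45e-05). Cd200 fell over the same interval, so the ligands of the axes parted after 3 h.

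Knockout minus wildtype for Cd47 was 0.16 ± 0.09 in untreated cells (no test), 0.23 ± 0.09 after 3 h (95% interval 0.03 to 0.43; adjusted p = 0.155) and 0.28 ± 0.09 after 24 h (95% interval 0.08 to 0.47; adjusted p = 0.125). Both knockout samples lay above both wildtype samples at every time, but neither tested difference passed the threshold over all genes. The LPS responses of the genotypes differed by 0.07 ± 0.12 at 3 h (adjusted p = 0.875) and by 0.12 ± 0.12 at 24 h (adjusted p = 0.707).

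The second Cd47 probe gave the same course. It read 3.64 and 3.65 in untreated wildtype, 4.93 and 4.91 at 3 h, and 5.73 and 5.72 at 24 h. In knockout it read 3.79 and 3.73, then 5.31 and 5.01, then 5.96 and 6.15. Wildtype differed from untreated cells by 1.27 at 3 h and 2.08 at 24 h on this probe, and knockout by 1.40 and 2.29, each a little below the first probe. Its genotype differences were 0.12, 0.24 and 0.32 at the 3 times.

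Sirpa, the macrophage receptor for CD47, was at 6.32 and 6.21 in untreated wildtype and at 5.97 and 6.09 in untreated knockout. After 3 h it was at 5.79 and 5.78 in wildtype and at 5.88 and 6.01 in knockout. At 24 h it reached 6.60 and 6.59 in wildtype cells, and 6.78 and 6.71 in knockout cells. In wildtype the 3 times did not overlap, whereas in knockout the 3 h samples overlapped the untreated ones.

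In wildtype Sirpa fell at 3 h by 0.48 ± 0.09 on the log2 scale (1.40-fold; adjusted p = 0.00216). In knockout the 3 h difference was -0.08 ± 0.09 (adjusted p = 0.461). The test of the difference between these responses gave 0.40 ± 0.12 (95% interval 0.12 to 0.68; adjusted p = 0.24). With quantile normalization the knockout difference at 3 h was -0.41 and passed (adjusted p = 0.0147).

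Sirpa rose from 3 h to 24 h by 0.81 ± 0.09 in wildtype (adjusted p = 0.000104) and by 0.79 ± 0.09 in knockout (adjusted p = 8.66e-05). At 24 h it was above untreated cells by 0.71 ± 0.09 in knockout (1.64-fold; adjusted p = 0.00018) and by 0.33 ± 0.09 in wildtype (1.26-fold; adjusted p = 0.0133). The wildtype call was lost with quantile normalization (0.05, adjusted p = 0.728), with normexp background correction (0.18, adjusted p = 0.0735) and with the percentile taken over probes detected on all arrays (0.24, adjusted p = 0.0629). It was also lost without untreated wildtype replicate 2 (adjusted p = 0.0795) and without either wildtype 24 h replicate (adjusted p = 0.0673 and 0.0619). Knockout minus wildtype was -0.24 ± 0.09 in untreated cells (no test), 0.16 ± 0.09 at 3 h (adjusted p = 0.293) and 0.14 ± 0.09 at 24 h (adjusted p = 0.374), the last turning to -0.07 with quantile normalization.

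**Figure D2:**
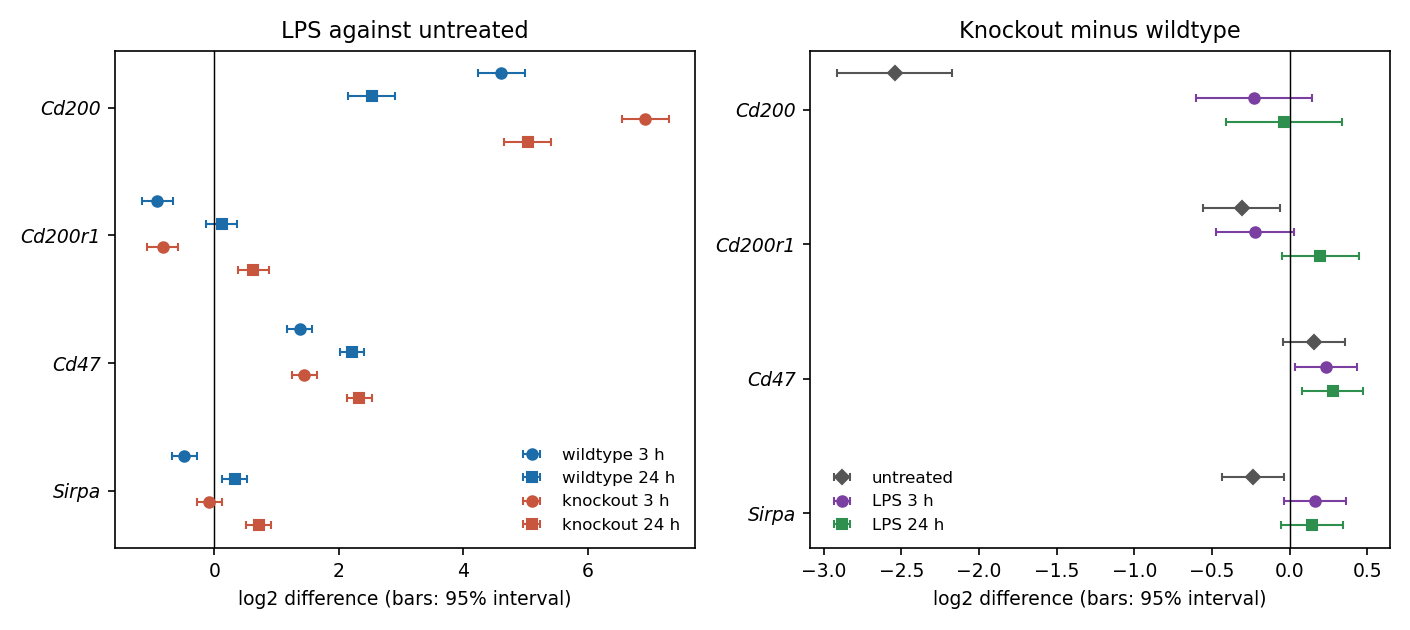
Log2 differences of the 4 genes with 95% intervals from the fit: LPS against untreated cells in each genotype (left) and knockout minus wildtype at each time (right). Intervals for Cd47 lie above 0 throughout the left panel. In the right panel Cd200 in untreated cells (-2.54) stands apart from the other values, which lie between -0.31 and 0.28. Cd200 was chosen for that difference, and intervals of Cd200 that use untreated samples make no allowance for it.

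Counted over members, the LPS comparisons are set beside all genes. At 3 h in wildtype, the 3 tested members passed (1 higher, 2 lower), where 46.5% of all genes passed, 23.2% higher and 23.3% lower. At 3 h in knockout 2 of 3 passed (1 higher, 1 lower), against 52.1% of genes, 26.4% higher and 25.7% lower. At 24 h against untreated cells 2 of 3 passed in wildtype, both higher (49.9% of genes, 23.6% higher), and 3 of 3 in knockout, all higher (57.5% of genes, 26% higher). From 3 h to 24 h all 4 members passed in each genotype, 3 higher and Cd200 lower, where 52.6% of genes passed in wildtype (25.7% higher, 26.9% lower) and 58.9% in knockout (26.3% higher, 32.6% lower). With so many genes called in each LPS comparison, these counts are no result about the members.

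The tested genotype comparisons called no member. Of 4 members, limma called 0 at 3 h (1 at an unadjusted p under 0.05), where 1.66% of genes passed, and 0 at 24 h (1 at an unadjusted p under 0.05), where 2.39% passed. In untreated cells, where no member was tested, 6.74% of genes passed. The LPS response differed by genotype in 0 of 3 tested members at 3 h (1 unadjusted; 0.0348% of genes passed) and in 0 of 3 at 24 h (2 unadjusted; 0.357% of genes passed). The change from 3 h to 24 h differed in 0 of 4 (1 unadjusted; 0.0217% of genes passed).

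The promoters of the ligand genes are shown because both ligands had higher levels after LPS. RefSeq's promoter table (GRCm38.p6) held 2 of the 4 members, Cd200 and Cd47. The 250 bases before the start site lie at chr16:45409054-45409303 on the minus strand for Cd200 and at chr16:49855404-49855653 on the plus strand for Cd47. Capitals mark matches, on either strand, to a CRE core (TGACG) or a GC box (GGGCGG).
Cd200: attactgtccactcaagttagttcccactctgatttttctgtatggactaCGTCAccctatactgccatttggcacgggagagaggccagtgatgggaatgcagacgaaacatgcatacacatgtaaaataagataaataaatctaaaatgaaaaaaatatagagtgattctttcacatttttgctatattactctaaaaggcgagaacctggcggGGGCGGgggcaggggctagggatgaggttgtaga
Cd47: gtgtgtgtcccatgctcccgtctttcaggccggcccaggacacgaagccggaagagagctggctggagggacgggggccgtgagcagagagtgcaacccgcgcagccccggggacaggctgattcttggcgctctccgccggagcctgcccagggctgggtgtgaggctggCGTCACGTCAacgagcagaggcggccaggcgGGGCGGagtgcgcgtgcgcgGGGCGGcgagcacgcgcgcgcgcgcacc
The windows differ in composition, with 42.4% G or C for Cd200 and 73.2% for Cd47, against a median of 52.0% over 27025 promoters. Cd200 has 1 CRE core, 200 bases before the start, and 1 GC box, 34 bases before it. Cd47 has 2 CRE cores next to each other, 79 and 74 bases before the start, and 2 GC boxes, 48 and 28 bases before it. Of all promoter windows of this length, 17.9% hold the CRE core and 32.9% the GC box. Neither window holds a match, on either strand, to the kB consensus (3.75% of windows), the interferon-stimulated response element (GAAA, then any 2 bases, then GAAA; 3.04%), the AP-1 site TGANTCA (6.87%), the C/EBP site TTNNGCAA (9.55%), the full CRE TGACGTCA (1.62%), which contains that core, or TATAAA (13.0%). These are letter matches and say nothing of binding.

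Close relatives of the receptors and other ligands formed the first of 4 lists around the axes. Of 14 listed genes, 12 were measured; Sftpa1 had no probe past the filter, and Sirpd was not analysed here. At 24 h 8 rose and 0 fell in wildtype (66.7% called, against 49.9% of all genes; median 0.91, against -0.04), and 7 rose and 0 fell in knockout (58.3%, against 57.5%; median 1.45, against -0.07), so the knockout share was near that of all genes. At 3 h 1 of 12 passed in wildtype (8.33%, against 46.5%) and 3 in knockout (25%, against 52.1%). The knockout genes were Cd200r3, Cd200r4 and Qpctl, an enzyme that modifies CD47, higher by 0.54, 0.51 and 0.30, and each of these calls was lost with the percentile over probes detected on all arrays (adjusted p = 0.129, 0.0543 and 0.236) and without untreated knockout replicate 1 (adjusted p = 0.237, 0.0721 and 0.169). The wildtype gene was Thbs1, an extracellular ligand of CD47, higher by 1.71 ± 0.33 (adjusted p = 0.00319). Its wildtype levels were 1.48 and 0.86 untreated and 3.07 and 2.70 at 3 h, and untreated knockout samples, at 3.66 and 3.01, lay above or within that 3 h range. Knockout minus wildtype for Thbs1 in untreated cells was 2.17 ± 0.33, a call lost without untreated wildtype replicate 2 (adjusted p = 0.0941) or untreated knockout replicate 1 (adjusted p = 0.101), and with only the groups compared (adjusted p = 0.125).

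The Sirpb1 genes encode relatives of SIRPA that lack its inhibitory tail and pair with the activating adaptor DAP12. Sirpb1a was at 0.47 and 0.24 in untreated wildtype and at 3.87 and 3.74 after 24 h, and in knockout at 1.35 and 0.89 and then at 4.57 and 4.60. Sirpb1a, Sirpb1b and Sirpb1c rose at 24 h by 3.45, 3.34 and 3.52 in wildtype and by 3.46, 3.32 and 3.51 in knockout, where Sirpa changed by 0.33 and 0.71. These genes are near-identical copies, so their probes may read one another and the values are not independent. None of them passed at 3 h, when their differences lay between -0.45 and -0.10.

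Cd200r4 and Cd200r3 encode activating relatives of CD200R1. Cd200r4 was at 2.35 and 2.52 in untreated wildtype, 2.50 in both 3 h samples, and 3.49 and 3.31 at 24 h. In knockout it ran from 1.49 and 1.83 through 2.14 and 2.21 to 3.88 and 3.74. It rose at 24 h by 0.97 in wildtype and by 2.14 in knockout, and did not follow the 3 h fall of Cd200r1. Cd200r3 was far dimmer, at -4.07 and -3.83 in untreated wildtype and at -5.05 and -4.41 in untreated knockout. It rose at 24 h by 1.15 in wildtype and by 2.37 in knockout. Of the 12 measured genes of this list, 0 passed the test for a genotype difference of the 24 h response. In untreated cells Cd200r4 was lower in knockout by 0.77 and Cd200r3 by 0.78 on the log2 scale. The untested differences of Cd200 and Cd200r1 had the same direction, but Cd200 was chosen for its own, so its direction adds no evidence. Of the 12 measured genes of this list, 1 was called higher in untreated knockout cells (Thbs1, 2.17) and 2 lower, Cd200r4 and Cd200r3. The calls of these 2 depended on samples and settings. Both calls were lost without untreated wildtype replicate 2 (adjusted p = 0.116 and 0.252) or untreated knockout replicate 1 (adjusted p = 0.119 and 0.219), and with only the groups compared (adjusted p = 0.136 and 0.2). That of Cd200r3 stood just inside the threshold (adjusted p = 0.0494) and was also lost without wildtype replicate 1 (adjusted p = 0.0894), with the percentile over detected probes (0.0529), quantile normalization (0.0589), no filter on dim probes (0.0938) and the mean over probes (0.0509). For Cd200r2 wildtype 3 h replicate 2 stood at 0.89 and replicate 1 at -4.63, and none of its comparisons passed.

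**Figure D3:**
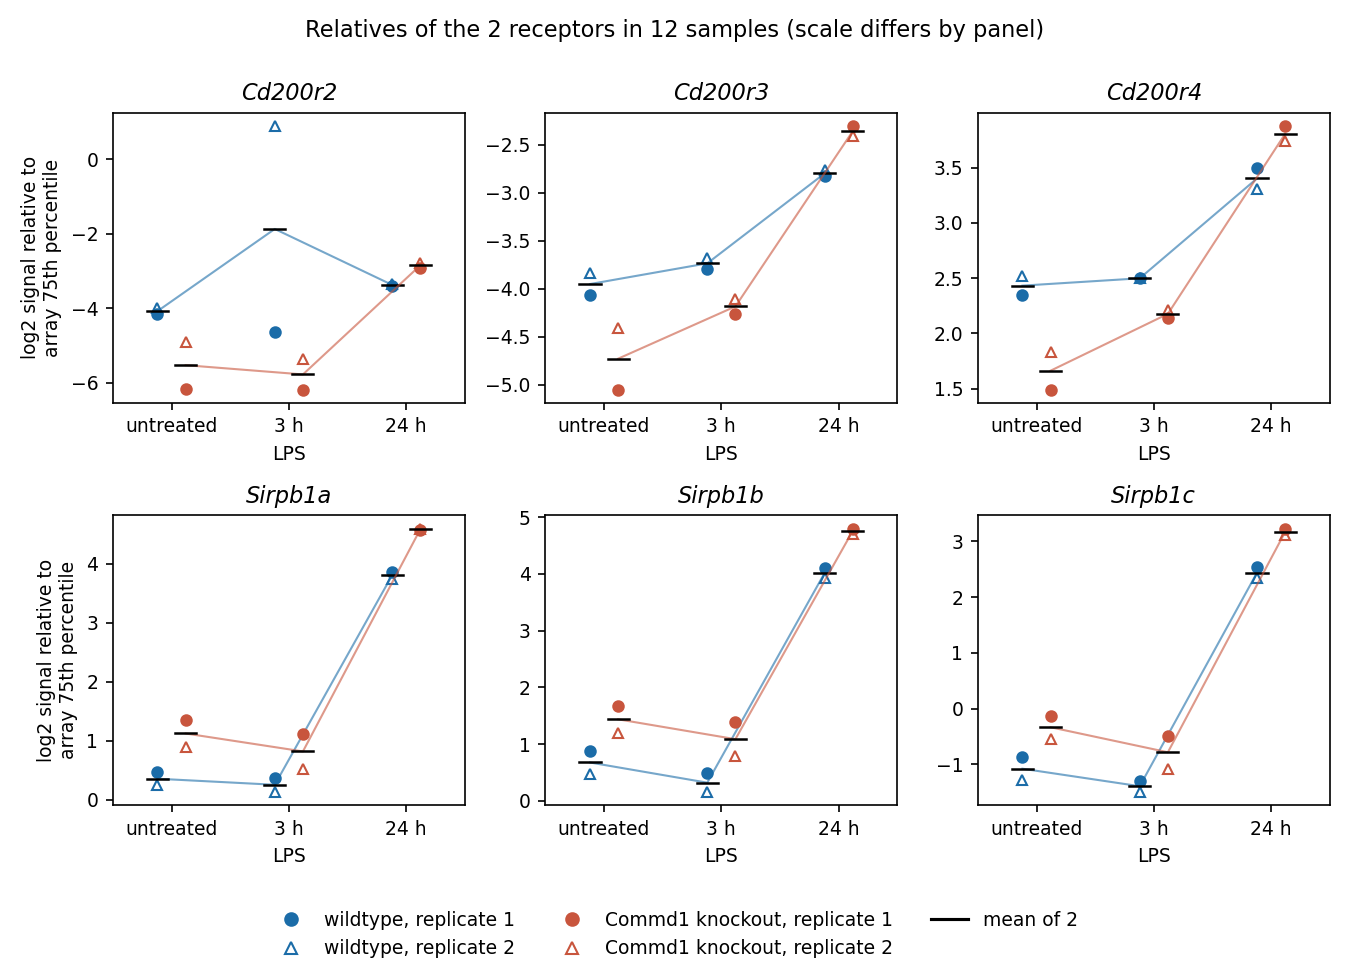
Levels of 6 relatives of the receptors in each sample (log2 signal relative to the array's 75th percentile, a separate scale per panel), drawn as single samples with group means. The Sirpb1 genes stand near their untreated level at 3 h and over 3 log2 units higher at 24 h in both genotypes, and for Cd200r2 a single wildtype 3 h sample, at 0.89, lies above all others.

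The second list held 16 signalling partners of CD200R1 and SIRPA, all measured. In wildtype 7 rose and 5 fell at 3 h (75% called, against 46.5% of all genes; median 0.17, against 0.03), and 10 rose and 2 fell at 24 h (75%, against 49.9%; median 0.44, against -0.04). In knockout the counts were 8 and 4 at 3 h (75%, against 52.1%; median 0.34, against 0.06), and 10 and 2 at 24 h (75%, against 57.5%; median 0.50, against -0.07). In untreated cells 2 of the 16 were called for genotype (12.5%, against 6.74% of all genes): Fgr, a kinase of the Src family, higher in knockout by 1.24 (adjusted p = 0.0267), and Dok2, lower by 0.57 on the log2 scale (adjusted p = 0.0288). Both calls were lost without untreated wildtype replicate 2 (adjusted p = 0.152 and 0.171) or untreated knockout replicate 1 (adjusted p = 0.16 and 0.202), with no filter on dim probes (adjusted p = 0.058 and 0.0635) and with only the groups compared (adjusted p = 0.135 and 0.142), and that of Fgr without wildtype replicate 1 (adjusted p = 0.0685). Fgr rose at 3 h by 1.63 in wildtype and by 1.60 in knockout. Inpp5d, the inositol phosphatase SHIP1, fell by 1.44 in wildtype and by 1.68 in knockout at 3 h on the log2 scale, and at 24 h it differed from untreated cells by 0.07 and -0.09, neither passing. Fyb, an adaptor that binds SIRPA's partner SKAP2, rose at 24 h by 1.97 in wildtype and by 1.90 in knockout.

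A few partners are given for their role, chosen after their values were seen. Ptpn6, encoding SHP-1, differed by -0.18 in wildtype and -0.23 in knockout at 3 h, neither passing, and rose by 1.10 and 1.13 at 24 h. Ptpn11, encoding SHP-2, rose by 0.64 and 0.67 at 3 h and differed by 0.03 and -0.07 at 24 h, neither passing. The phosphatases of the SIRPA arm thus rose at different times. On the CD200R1 arm, Dok1 rose at 3 h by 0.39 and 0.53 and at 24 h by 0.81 and 0.99, and Rasa1 fell at 24 h by 1.13 in wildtype and by 0.80 in knockout on the log2 scale. Dok2 fell at 3 h by 0.76 in wildtype, and its knockout difference was -0.14 (adjusted p = 0.349); the test of the difference between these responses gave 0.62 ± 0.16 (adjusted p = 0.176).

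Signals for engulfment that CD47 is known to oppose made up the third list, with 14 of 15 genes measured and Megf10 without a probe past the filter. At 3 h 6 rose and 2 fell in wildtype (57.1% called, against 46.5% of all genes; median 0.19, against 0.03), and 6 rose and 1 fell in knockout (50%, against 52.1%; median 0.34, against 0.06). At 24 h 6 rose in wildtype (42.9%, against 49.9%; median 0.26, against -0.04) and 5 in knockout (35.7%, against 57.5%; median 0.18, against -0.07), and 0 fell. The shares at 24 h lie below those of all genes. Slamf7, a receptor of phagocytes, rose at 3 h by 2.83 in wildtype and by 3.49 in knockout. Mertk, a receptor for dying cells, fell at 3 h by 0.89 in wildtype and by 1.05 in knockout on the log2 scale, while its relative Axl rose by 1.33 and 1.27. Axl was the gene of this list called for genotype, higher in knockout by 0.87 in untreated cells, 0.81 at 3 h and 0.69 at 24 h. The untreated call was lost without wildtype replicate 2 (adjusted p = 0.0621) or knockout replicate 1 (adjusted p = 0.0756), or with only the groups compared (adjusted p = 0.125). The calls at 3 h and 24 h were lost without either wildtype replicate or knockout replicate 1 of that time, with adjusted p from 0.0636 to 0.173, and with no filter on dim probes (adjusted p = 0.0944 and 0.0699) or only the groups compared (adjusted p = 0.225 and 0.109).

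The fourth list held other inhibitory receptors of myeloid cells, with 17 of 18 measured and Ceacam1 not analysed here. In wildtype 5 rose and 4 fell at 3 h (52.9% called, against 46.5% of all genes; median 0.05, against 0.03), and 12 rose and 3 fell at 24 h (88.2%, against 49.9%; median 0.73, against -0.04). In knockout 4 rose and 4 fell at 3 h (47.1%, against 52.1%; median 0.05, against 0.06), and 10 rose and 5 fell at 24 h (88.2%, against 57.5%; median 0.67, against -0.07). Cd72, an inhibitory receptor shared with B cells, rose at 24 h by 2.47 in wildtype and by 3.37 in knockout. Cd300lf fell at 3 h by 1.36 and 1.33 on the log2 scale and rose at 24 h by 2.44 and 2.66. Vsir, encoding the checkpoint protein VISTA, fell at both times, by 1.14 and 1.26 in wildtype and by 1.50 and 1.63 in knockout on the log2 scale. In untreated cells 1 of the 17 was called for genotype (5.88%, against 6.74% of all genes). This was Lilrb4a, lower in knockout by 0.66 on the log2 scale (adjusted p = 0.0237). Its call was lost with no filter on dim probes (adjusted p = 0.0537) and with only the groups compared (adjusted p = 0.146). Without untreated wildtype replicate 2 its difference was -0.55, and without untreated knockout replicate 1 it was -0.52.

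Pilra, an inhibitory receptor of myeloid cells, was the gene of the 4 lists whose LPS response differed by genotype. It was at 1.42 and 1.58 in untreated wildtype and at 2.50 and 2.21 after 24 h, and in knockout at 1.97 and 1.84 and then at 0.98 and 1.11. The 24 h responses differed by -1.71 (adjusted p = 0.021), and knockout minus wildtype at 24 h was -1.31 (adjusted p = 0.00647). The difference of responses did not pass without untreated knockout replicate 1 (adjusted p = 0.0798) or with no filter on dim probes (adjusted p = 0.0598), and with only the groups compared neither value passed (adjusted p = 0.088 and 0.105).

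**Figure D4:**
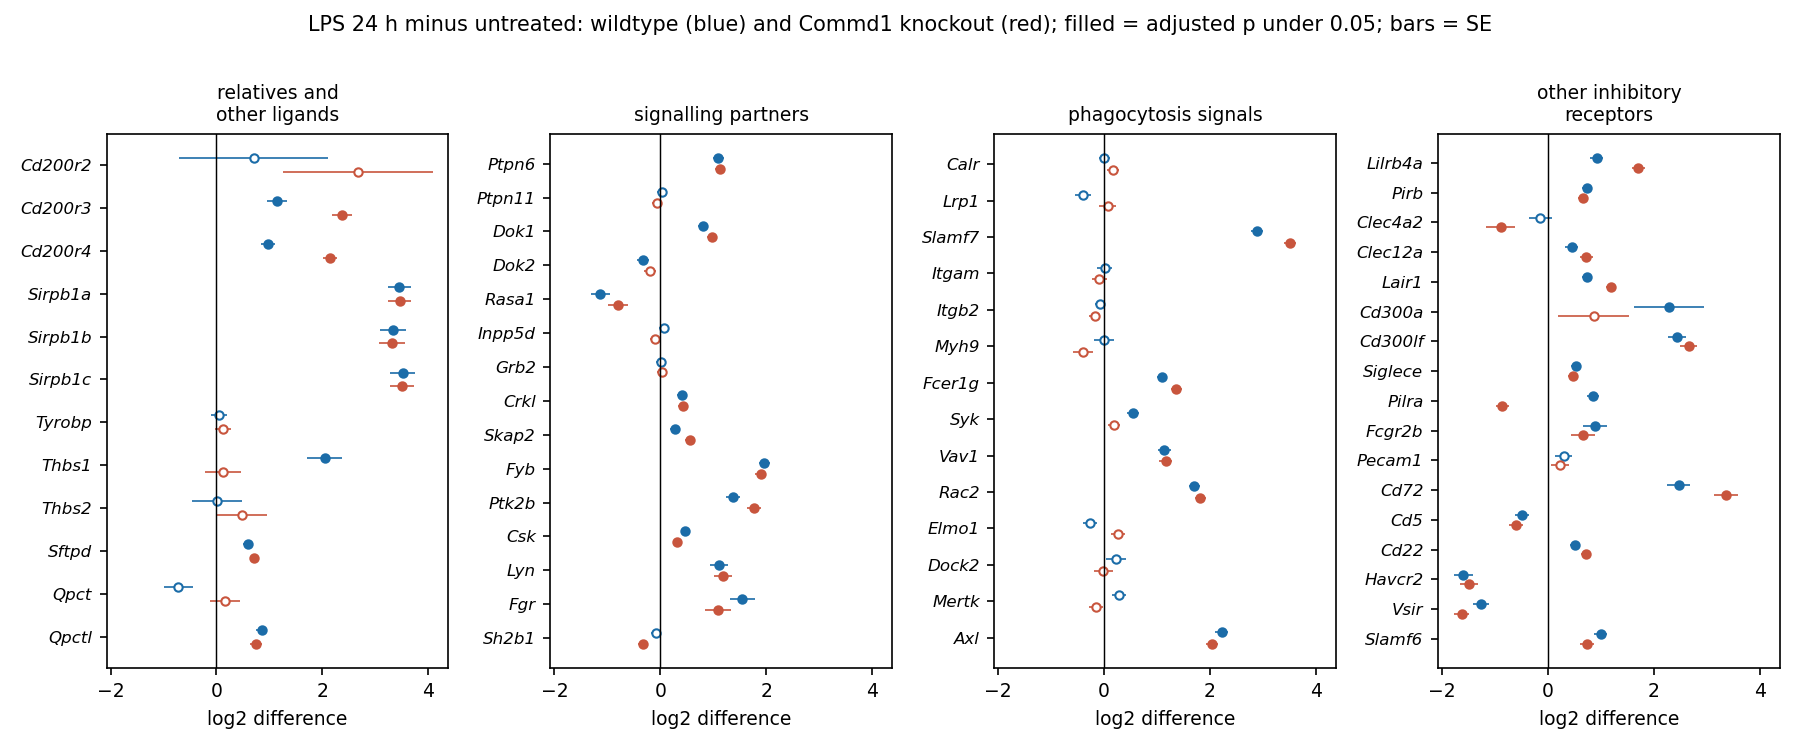
Log2 difference between 24 h of LPS and untreated cells for the measured genes of the 4 lists except 1 signalling partner, in wildtype (blue) and knockout (red); bars are standard errors and filled points have an adjusted p under 0.05. The 3 Sirpb1 genes lie between 3.32 and 3.52 in both genotypes, and Pilra lies above 0 in wildtype and below 0 in knockout.

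The genes whose levels ran most like each member over the 12 arrays were ranked by Pearson correlation among 17763 genes above background on every array. The points share 4 mice, 3 slides and the LPS times, so these values only describe the courses. For Cd200 the 5 nearest were Ccl3 (r = 0.992), Eif4e (0.991), Rin2 (0.990), Atp6v1e1 (0.989) and Ppa1 (0.987). Each of these had its lowest group mean in untreated knockout cells and its highest at 3 h. The ranking used all 12 arrays, with the untreated samples that chose Cd200, so this shared course is a product of the ranking. The courses shared with the other members below are likewise a product of it. Ccl3, a chemokine, had group means of 3.83, 6.98 and 5.95 in wildtype and of 2.49, 7.09 and 5.78 in knockout, in the order untreated, 3 h and 24 h.

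**Figure D5:**
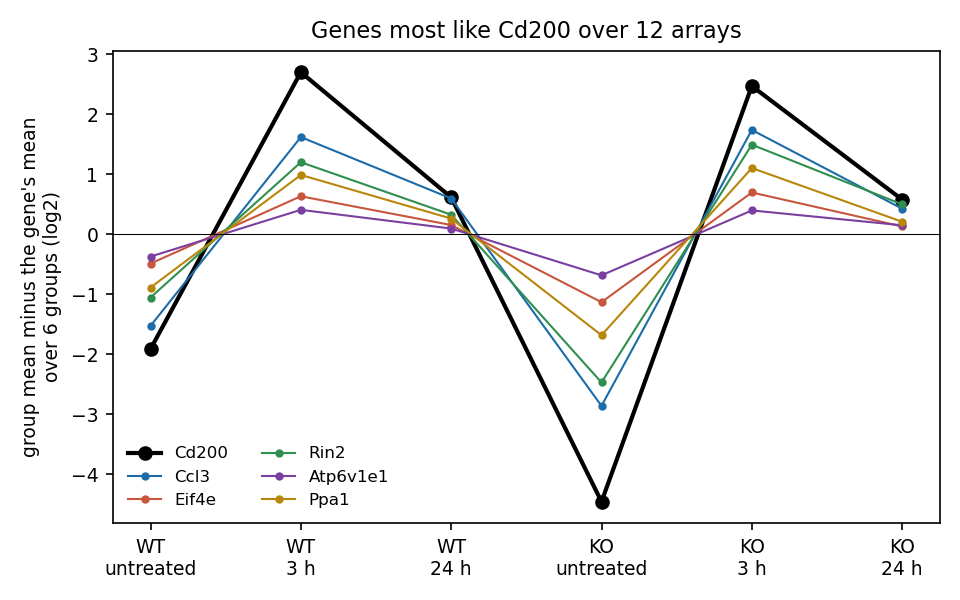
Group means of Cd200 and of its 5 nearest genes over the 6 groups, each centred on its own mean (log2). All lie lowest in untreated knockout cells and highest at 3 h of LPS, and Cd200 spans the widest range. The 5 genes were picked for their likeness to Cd200 over these same samples.

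Cd200r1 ran closest to Zfand2a (r = 0.989), Pwwp2b (0.988), Ccdc103, Tango2 and Rnf168 (0.987 each), all lowest at 3 h. Cd47 ran closest to Phf11b (r = 0.999), Fbxw17 (0.998), Casp1 (0.997), Cst7 (0.997) and Slco3a1 (0.997), which climbed from untreated cells through 3 h to 24 h. Casp1, the protease that matures interleukin-1 beta, had group means of 4.42, 5.73 and 6.53 in wildtype and of 4.41, 6.03 and 6.89 in knockout. The nearest to Sirpa were a transcript known only by its ID (r = 0.980), Lpxn (0.978), Trib3 (0.975), Rabepk (0.975) and Zfp469 (0.975). Lpxn had its lowest group mean at 3 h and its highest at 24 h in both genotypes.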

How the data were processed

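Per the file headers, the authors' scanner files give for each spot a processed intensity, with background and a spatial trend removed within the array and no scaling between arrays, and deposited flags (other columns) for spots above background, saturated or outlying. The submitters' processing notes name Agilent Feature Extraction 10.7.3.1. The deposited value table, in log2 units, served as an alternative; its values equal the log2 processed intensity minus a constant per array.

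Here control and outlier spots were left out, spots of a probe averaged, and the array's 75th percentile subtracted from log2 processed intensity. Probes had to pass the background flag on both replicates of some group (28446 of 39429 did), and each gene was represented by its probe of highest mean. Probes were named by accession (26412), symbol (3854) or synonym (735) through the RefSeq table, and 8428 kept the file's name. limma 3.58.1 in R 4.3.3 fitted 6 group means to 12 arrays (6 residual degrees of freedom, 2.23 prior), with two-sided tests adjusted by Benjamini-Hochberg over all genes at 0.05. Values after ± are standard errors of a difference, and every adjusted p is limma's. "Rose" and "fell" are used for changes that passed.

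Within a genotype, samples with the same replicate number were taken as coming from the same mouse. Deviations from the group means correlated between samples of a mouse, with r across genes of 0.119 to 0.184 in wildtype and 0.121 to 0.351 in knockout. The number of arrays limits the precision. In each list the genes named are at most the 3 with the largest change past the threshold and those of a count of 3 or fewer, and for each member the 5 most correlated genes; 1 signalling partner that this rule names is counted but not reported here. Members and lists were chosen with earlier results of these data known. The fit was tested on simulated data, but no outcome of that is given here, so it lends no weight to these values.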

Additional observations from a re-analysis of the deposited data

Results flagged for a closer look

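Pilra, an inhibitory receptor of myeloid cells and no member of the axes, was singled out because limma's test of the difference between genotypes passed for its LPS response. The 24 h response was lower in knockout by a log2 difference of -1.71 ± 0.17 (adjusted p = 0.021). Pilra was higher at 24 h than untreated in both wildtype replicates and lower in both knockout replicates. The change from 3 h to 24 h differed by -1.66 ± 0.17 (adjusted p = 0.0488). The second call was lost with the mouse as a replicate block (adjusted p = 0.0717), with the mean over its probes (-1.34, adjusted p = 0.0868), with no filter on dim probes (adjusted p = 0.156), with only the groups compared (adjusted p = 0.224), and without knockout 3 h replicate 1 (adjusted p = 0.081), either wildtype 3 h replicate (adjusted p = 0.064 and 0.0608) or wildtype 24 h replicate 1 (adjusted p = 0.0616). No tested difference of this kind passed for Cd200, Cd200r1, Cd47 or Sirpa.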

How the results depend on the processing

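Of the tested calls of the members, only those of Sirpa against untreated cells changed. At 24 h in wildtype the value of 0.33 became 0.18 with normexp, 0.24 with the percentile over probes detected on all arrays and 0.052 with quantile normalization, none passing; leaving out single arrays gave 0.27 to 0.39. At 3 h in knockout it became -0.41 with quantile normalization, past the threshold. Untested values moved as follows. Normexp here adds an offset of 50 to each signal before the log, where the processed Cd200 signals of untreated knockout were 116 and 146. With normexp the LPS differences of Cd200 became 4.35 and 2.25 in wildtype and 6.32 and 4.33 in knockout at 3 h and 24 h. The untreated genotype difference became -2.10, and the differences of the responses 1.97 and 2.08. Without single untreated knockout arrays the same values were 6.73 to 7.13, 4.84 to 5.23, -2.74 to -2.35, 2.12 to 2.51 and 2.31 to 2.70. The untreated genotype difference of Sirpa was -0.44 with quantile normalization. Differences near 0 changed sign without passing: with quantile normalization Sirpa between genotypes at 24 h (-0.0732), and Cd47 in the differences of the 24 h response (-0.0664) and of the change from 3 h to 24 h (-0.07). Without single arrays, Cd200 between genotypes at 24 h ranged from -0.145 to 0.0688, the difference of the change from 3 h to 24 h from -0.0312 to 0.119 for Cd47 and from -0.0812 to 0.0465 for Sirpa. The cause of these moves was not tested. Other scalings moved the median of all genes at 24 h in knockout from -0.07 to between -0.20 and 0.22.

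Counts of all genes called for genotype were unstable, so percentages of genes called there are a loose background. In untreated cells 1550 genes became 2568 with normexp, 453 with no filter on dim probes and 0 with only the groups compared (5155 at an unadjusted p under 0.05 in limma), and 152 to 1298 without single arrays. At 3 h 381 became 1733 with normexp, 1479 with only probes above background on all arrays, 806 in the deposited value table, and 0 with no filter (6055 unadjusted in limma) or only the groups compared (4350), and 22 to 2926 without single arrays, the highest without knockout 3 h replicate 2. At 24 h 550 became 929 with the percentile over detected probes, 945 with only detected probes, 103 with no filter and 0 with only the groups compared (4284 unadjusted in limma), and 61 to 792 without single arrays. For the difference of the 3 h response 8 became 107 with normexp, 74 with detected probes, 40 in the value table, and 0 with no filter (2894 unadjusted in limma) or only the groups compared (2863), and 0 to 372 without single arrays. For that of the 24 h response 82 became 246 with normexp, 128 with the percentile over detected probes, 244 with detected probes only, 180 in the value table, 2 with only the groups compared and 0 with no filter (3395 unadjusted in limma), and 4 to 240 without single arrays. For that of the change from 3 h to 24 h 5 became 10 with normexp, 14 with quantile normalization, 28 with detected probes and 28 in the value table, and 0 with no filter (3407 unadjusted in limma), with the mean over probes (3542) or only the groups compared (3131), and 0 to 217 without single arrays.

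With the mouse as a replicate block, no call of a member changed. The block moved the counts for the differences of the LPS response to 0 at 3 h (3243 at an unadjusted p under 0.05 in limma), to 154 at 24 h and to 0 for the change from 3 h to 24 h (4132 unadjusted). Of 936 recomputed counts of the 4 lists, 128 moved by over 1.5 times, and of 1113 recomputed values of the named list genes 82 no longer passed.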
